A study of Homo sapiens with 94 samples.

Results

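The 43 genes described here are interferon-stimulated genes and genes of MHC class I antigen presentation, measured by RNA sequencing in human mesothelioma xenografts after K-975, a covalent inhibitor that occupies the lipid pocket of the TEAD transcription factors and blocks their palmitoylation. They were chosen by gene symbol, and all 43 were found among the 20239 genes of the expression table. The tumors came from NCI-H226, an established human malignant pleural mesothelioma cell line with an NF2 deletion, grown under the skin of female CB17/lcr-Prkdc scid/lcrIcoCrl (SCID) mice, 6 to 8 weeks old. SCID mice lack mature T and B cells, and the myeloid and NK cells that remain in the host are mouse cells. Each mouse received a single administration of vehicle or of K-975 at 30, 100 or 200 mg/kg, or nothing (untreated), and gave 1 tumor. Vehicle and 200 mg/kg were given in 20 mL/kg and the lower doses in 10 mL/kg, so that at 30 and 100 mg/kg dose and volume cannot be told apart against vehicle. There were 3 studies, with sampling at 1 h, at 3 or 6 h, and at 24 h, and each arm was a cage group of 5 mice (24 h vehicle, n = 4). The 3-6 h study held 2 cage groups per vehicle or K-975 arm, and since the labels do not assign the cages to 3 h or 6 h, both were pooled. At 1 h and 24 h each arm was 1 cage, so that group and cage cannot be told apart. All arms, controls included, carried this 1 cell line.

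Values were FPKM (fragments scaled to transcript length and to the mapped fragments of the library), and the depth behind them is unknown because they come without counts. Of 94 libraries, 91 had 11344 to 11665 genes at an FPKM of at least 1. The other 3 had under 10000 such genes (1 h 200 mg/kg replicate 1, 24 h 100 mg/kg replicate 5 and 24 h 30 mg/kg replicate 1, with 8531, 7196 and 702) and were left out of the tests, which leaves 4 tumors in each of these groups. Results with them are given where they differ. All 8 markers of the mesothelioma line were detected, including MSLN and CALB2. Among 12 leukocyte markers AIF1, TYROBP and MS4A1 were at 0 in all 91 libraries, and PTPRC had a median of 0.17 FPKM. CD68, with a median of 139 FPKM, made up most of the leukocyte sum. In a bulk tumor, fewer cells of a type and less RNA per cell cannot be told apart.

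Type I and type III interferons signal through their receptors and the kinases JAK1 and TYK2 to a transcription factor complex that holds STAT2 and IRF9. The complex binds the interferon-stimulated response element (ISRE) in the promoters of interferon-stimulated genes. Type II interferon acts through the gamma-activated site (GAS). The induced proteins block steps of viral replication and raise the display of peptides on MHC class I, the complex that CD8+ T cells read. Some tumor cell lines hold these genes at a standing level without added interferon.

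The members fell into 7 roles. IFIH1 (MDA5) and DDX58 (RIG-I) sense viral RNA in the cytoplasm. STAT2, IRF1, IRF7 and IRF9 are transcription factors. The 16 antiviral effectors were the IFIT proteins that bind foreign RNA (IFIT1, IFIT2, IFIT3 and IFIT5), the MX GTPases (MX1 and MX2), the oligoadenylate synthetases and a related protein (OAS1, OAS2, OAS3 and OASL), RSAD2 (viperin), CMPK2, the tetherin BST2, SAMD9, SAMD9L and the guanylate-binding protein GBP1. ISG15 is a ubiquitin-like modifier, HERC5 and HERC6 are HECT-type ligases of which HERC5 attaches ISG15 in human cells, and USP18 removes it and restrains the receptor. PARP9 and DTX3L act as a complex, and PARP14 is a related ADP-ribosyltransferase. IFI6, IFI27, IFI35, IFI44, IFI44L, XAF1 and EPSTI1 are other interferon-stimulated genes. HLA-B, HLA-C and B2M form class I molecules, TAP1 carries peptides into the endoplasmic reticulum, PSMB8 and PSMB9 are immunoproteasome subunits, and NLRC5 is the transactivator of class I genes.

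Promoters were read for 36 of the 43 members (RefSeq, GRCh38.p14, the 250 bases before the annotated start). The sequences below are shown because they bring together the members that varied most alike across tumors (ISG15, IFI6, IFIT1 and MX1), the invariant light chain of class I (B2M) and a pair of factors that were among those that followed the others least (IRF1 and STAT2). Each runs 5′ to 3′ on the strand of the gene, and capitals mark matches to the ISRE core GAAANNGAAA (the half-site GAAA repeated after 2 bases) or its reverse complement TTTCNNTTTC, or to the GAS core TTCNNNGAA, which reads the same on both strands. No sequence shown held both motifs.
ISG15 (chr1:1013247-1013496, plus strand): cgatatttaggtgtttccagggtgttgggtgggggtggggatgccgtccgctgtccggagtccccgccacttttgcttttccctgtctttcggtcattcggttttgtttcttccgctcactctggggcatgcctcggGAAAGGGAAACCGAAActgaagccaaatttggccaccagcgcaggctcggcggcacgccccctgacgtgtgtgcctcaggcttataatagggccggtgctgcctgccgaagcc
IFI6 (chr1:27672193-27672442, minus strand): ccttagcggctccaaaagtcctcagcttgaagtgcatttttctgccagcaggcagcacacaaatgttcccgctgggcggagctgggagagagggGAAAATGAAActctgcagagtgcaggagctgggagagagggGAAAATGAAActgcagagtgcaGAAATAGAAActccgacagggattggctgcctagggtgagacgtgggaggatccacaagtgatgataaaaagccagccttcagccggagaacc
IFIT1 (chr10:89392373-89392622, plus strand): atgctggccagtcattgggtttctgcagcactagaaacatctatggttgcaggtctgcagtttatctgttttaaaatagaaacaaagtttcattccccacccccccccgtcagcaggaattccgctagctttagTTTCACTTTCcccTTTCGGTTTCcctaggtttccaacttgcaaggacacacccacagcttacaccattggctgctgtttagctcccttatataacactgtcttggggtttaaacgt
MX1 (chr21:41420308-41420557, plus strand): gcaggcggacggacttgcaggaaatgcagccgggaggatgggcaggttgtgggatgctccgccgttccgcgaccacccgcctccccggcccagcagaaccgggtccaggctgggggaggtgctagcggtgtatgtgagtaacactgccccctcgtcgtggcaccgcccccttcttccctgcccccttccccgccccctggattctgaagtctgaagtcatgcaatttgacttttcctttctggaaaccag
B2M (chr15:44711267-44711516, plus strand): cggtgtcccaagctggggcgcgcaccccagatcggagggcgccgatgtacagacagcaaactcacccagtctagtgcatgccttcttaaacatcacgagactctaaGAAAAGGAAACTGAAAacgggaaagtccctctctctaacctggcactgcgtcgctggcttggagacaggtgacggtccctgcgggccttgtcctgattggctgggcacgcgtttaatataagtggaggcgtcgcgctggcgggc
IRF1 (chr5:132490774-132491023, minus strand): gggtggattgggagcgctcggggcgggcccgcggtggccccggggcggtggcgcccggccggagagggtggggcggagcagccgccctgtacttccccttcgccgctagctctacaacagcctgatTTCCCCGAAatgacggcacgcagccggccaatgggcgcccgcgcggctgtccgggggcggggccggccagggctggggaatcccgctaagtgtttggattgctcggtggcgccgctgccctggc
STAT2 (chr12:56360108-56360357, minus strand): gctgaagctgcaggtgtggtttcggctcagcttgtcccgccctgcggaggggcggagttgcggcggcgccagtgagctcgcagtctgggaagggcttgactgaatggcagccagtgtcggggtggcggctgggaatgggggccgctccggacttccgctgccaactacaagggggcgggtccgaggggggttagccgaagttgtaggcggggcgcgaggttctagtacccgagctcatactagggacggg

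The ISRE core was present in 18 of the 36 member promoters (50.0%) and in 839 of all 27305 promoters of the same length (3.07%). The GAS core was present in 8 (22.2%), against 6.78% of all promoters. Counted from the gene start, the matches of ISG15 began at -113 and -107 and overlapped each other, as did those of B2M, at -144 and -138. IFI6 held 3 matches, from -156 to -93, and IFIT1 held matches at -116 and -103. IRF1 held only a GAS match, at -124. The windows of MX1 and STAT2 held neither set of letters, which says nothing of sites elsewhere. A match is a description of the sequence and was not tested for binding.

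In the tumors, class I genes and a few small interferon-stimulated genes were abundant. Over 91 tumors the median level of ISG15 was 497 FPKM, of B2M 470.2 and of IFI6 369. IFI27, HLA-B, HLA-C and PSMB9 followed at 320.4, 294, 239 and 144 FPKM. These 7 members were the ones over 100 FPKM. MX1 stood at 92.9, IRF9 at 61.6, PSMB8 at 49.6, STAT2 at 41.1, OAS3 at 38.7 and TAP1 at 38.4 FPKM. At the other end 7 members had a median under 5 FPKM, among them GBP1 (2.23), CMPK2 (3.18), USP18 (3.43) and IFI44L (3.50). HERC5 was near the floor, with a median of 0.09 and a highest value of 0.64 FPKM, and was the only member that did not pass the filter of an FPKM of at least 1 in 4 libraries. The remaining 42 were tested, and 38 members were at 1 FPKM or more in every library.

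**Figure D1:**
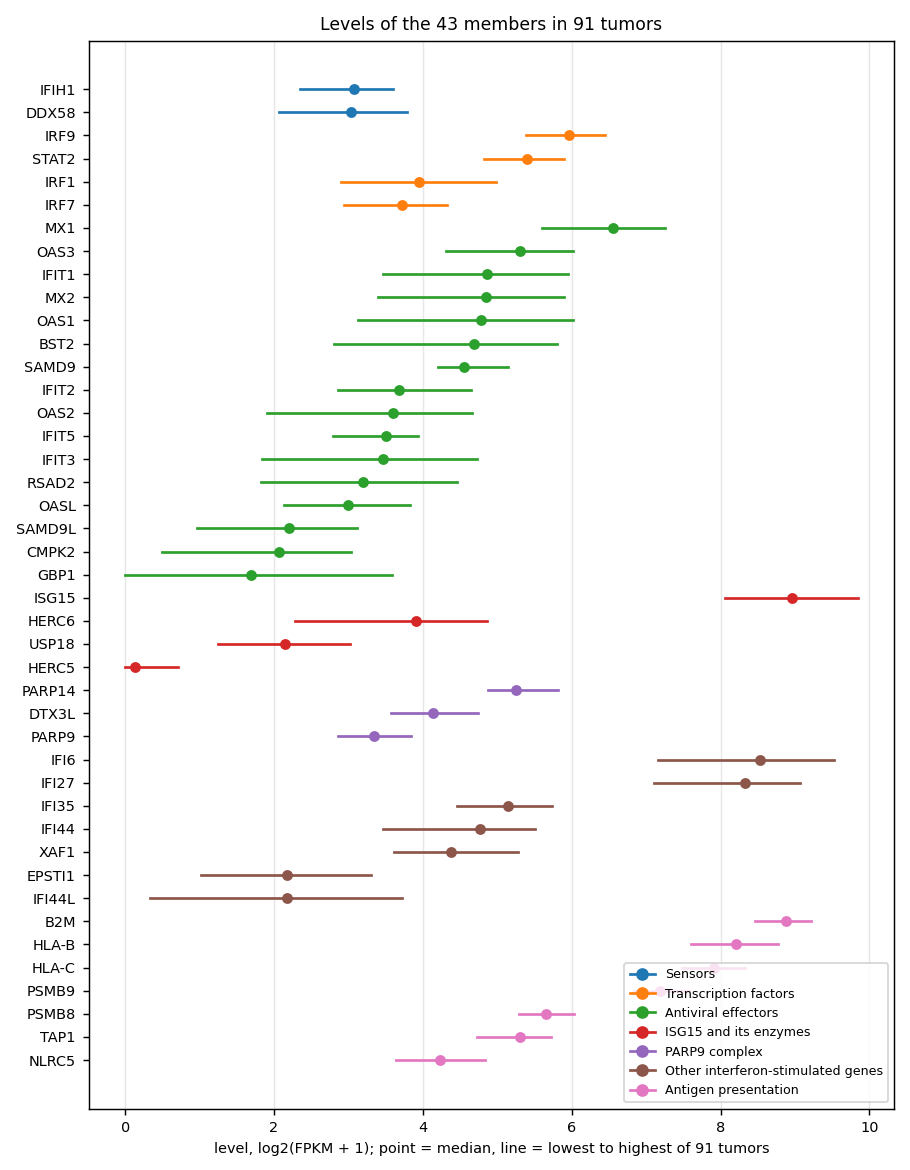
Levels of the 43 members on a log2(FPKM + 1) axis, where each point is the median of 91 tumors, each line runs from the lowest to the highest tumor and the colour gives the role. ISG15 and B2M lie highest, HERC5 lies at the floor, and the lines of IFI44L and GBP1 are long beside those of PSMB9 and PSMB8.

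The levels varied between tumors by amounts that depended on the member. The ratio of the highest to the lowest tumor had a median of 3.46 over the tested members, from 1.66 in PSMB9 to 47.4 in IFI44L. Within groups the SD of log2(FPKM + 1) had a median of 0.34, against 0.29 over all 13036 genes tested, and ran from 0.15 in PSMB8 to 0.71 in GBP1. The groups accounted for a median of 23.8% of a member's variance, close to the 25.1% of all genes. This share is not corrected for the number of groups, so part of it arises without any difference between groups. HLA-B (40.4%) and B2M (39.0%) had larger shares than the median member. Among tumors, the 3-6 h vehicle tumor replicate 3 of cage group 2 held the lowest value of 13 members and the 3-6 h untreated tumor replicate 3 that of 11. The 1 h 100 mg/kg replicate 4 held the highest value of 10 members, the 3-6 h vehicle tumor replicate 2 of cage group 3 that of 8 and the 1 h 100 mg/kg replicate 3 that of 6.

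At 24 h, 0 of the 42 tested members changed at 200 mg/kg against vehicle (limma on log2(FPKM + 1), adjusted p under 0.05), while 966 of 13036 genes (7.41%) did. At an unadjusted p under 0.05 there were 3 members, beside 21.9% of all genes. The median log2 fold change of the members was -0.04, with 17 above 0 and 25 below, beside a median of 0.04 and 55.2% above 0 over all genes, and the values ran from -0.48 to 0.27. The members' median was 0.04 without the 200 mg/kg replicate 1, 0.01 without replicate 5, -0.12 without replicate 2 and 0.03 against the untreated tumors, so its sign rested on single tumors and on the control group. The 16 antiviral effectors had 13 values below 0 (median -0.09) and the 4 transcription factors had 3 above 0 (median 0.21). Antigen presentation lay at 0.02.

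OAS3, which makes the oligoadenylates that activate RNase L (chr12:112938351-112973249), had the largest difference. Its values were 38.1, 42.1, 51.7 and 61.6 FPKM in the vehicle tumors and 23.3, 31.4, 31.5, 34.9 and 54.8 at 200 mg/kg. A single treated tumor lay within the upper vehicle values and the groups overlapped. The log2 fold change was -0.48 (SE 0.23, adjusted p = 0.203), with a 95% interval of -0.94 to -0.02. IFIT5, an RNA-binding IFIT protein (chr10:89414585-89421001), measured 10.9, 11.6, 11.7 and 13.9 FPKM with vehicle and 8.06, 8.61, 9.49, 10.8 and 10.9 at 200 mg/kg, a difference of -0.30 (SE 0.14, adjusted p = 0.190). The highest treated tumor met the lowest vehicle tumor. EPSTI1, an interferon-stimulated gene first described at the border of epithelium and stroma, measured 2.80, 3.77, 4.08 and 4.29 FPKM with vehicle and 1.44, 1.62, 3.78, 4.19 and 4.38 at 200 mg/kg (log2 fold change -0.28, SE 0.28, adjusted p = 0.597). Of the treated tumors, 2 lay under all vehicle tumors and 3 lay among or above them.

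STAT2 and IRF9, which act in 1 complex, were on the higher side. STAT2 (chr12:56341596-56360155) measured 36.5, 38.3, 41.1 and 45.7 FPKM with vehicle and 37.4, 48.5, 48.9, 50.9 and 58.6 at 200 mg/kg. All but 1 treated tumor lay above the vehicle tumors. The log2 fold change was 0.26 (SE 0.11, adjusted p = 0.140), with an interval of 0.04 to 0.48, and it passed the threshold only without that lower treated tumor, replicate 2 (0.35, adjusted p = 0.0294). IRF9 measured 45.9, 47.1, 52.2 and 71.0 FPKM with vehicle and 59.1, 63.1, 64.7, 65.5 and 70.2 at 200 mg/kg (log2 fold change 0.27, SE 0.15, adjusted p = 0.274), and the highest vehicle tumor lay above every treated one.

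ISG15 (chr1:1001137-1014541) measured 347, 486, 533 and 535 FPKM with vehicle and 405, 422, 464, 537 and 722 at 200 mg/kg. The groups overlapped, with 2 treated tumors above the highest vehicle tumor and none under the lowest, and the log2 fold change was 0.09 (SE 0.21, adjusted p = 0.855), with an interval of -0.33 to 0.51. HERC6 measured 11.5, 11.6, 12.03 and 16.4 with vehicle and 10.7, 11.3, 17.7, 19.7 and 20.7 at 200 mg/kg, and 3 treated tumors lay above and 2 below the vehicle tumors (log2 fold change 0.26, SE 0.27, adjusted p = 0.623). IFIT1 (chr10:89392545-89406486), which binds RNA that lacks host cap methylation, measured 25.6, 28.8, 31.7 and 36.2 FPKM with vehicle and 22.0, 22.4, 26.8, 32.2 and 45.4 at 200 mg/kg (log2 fold change -0.08, SE 0.27, adjusted p = 0.909). IFI27, a small mitochondrial protein, measured 278, 282, 308 and 308 FPKM with vehicle and 227, 267, 278, 338 and 407 at 200 mg/kg (log2 fold change 0.02, SE 0.21, adjusted p = 0.978). Treated tumors lay on both sides of the vehicle range for IFIT1 and IFI27.

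For B2M (chr15:44711476-44718877), the light chain of every class I molecule, the vehicle tumors gave 434, 462, 489 and 494 FPKM and the 200 mg/kg tumors 436, 485, 499.8, 526 and 531. The difference was 0.08 (SE 0.10, adjusted p = 0.727) and its interval, -0.13 to 0.28, was among the narrower ones. HLA-B (chr6:31269490-31357188), a class I heavy chain, gave 303, 323, 349 and 351 with vehicle and 261, 309, 328, 336 and 358 at 200 mg/kg (log2 fold change -0.06, SE 0.15, adjusted p = 0.856, interval -0.36 to 0.23). In both genes the groups overlapped. HLA-B and HLA-C share sequence with each other and with other class I genes, so the split of their reads is uncertain.

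Markers of the tumor line moved in the same comparison. The summed FPKM of the 8 mesothelioma markers was 2654 to 2774 in the 24 h vehicle tumors and 2956 to 3430 at 200 mg/kg. These sums did not overlap, beside 7.45% of single genes without overlap. In the 24 h untreated tumors the sum ran from 2432 to 3405 and overlapped that at 200 mg/kg. The sums at 30 mg/kg (3081 to 3348) and 100 mg/kg (2803 to 3473) also lay above all vehicle tumors. Of the 8, MSLN, CALB2 and KRT19 rose at 200 mg/kg against vehicle, 3 markers beside 3.80% of all genes. Their log2 fold changes were 0.40, 0.39 and 0.32 (limma adjusted p = 0.0414, 0.0198 and 0.0314). With all 94 libraries 0% of all genes passed in this comparison, so these 3 calls were lost. None of the 8 was at 0. The leukocyte sum was 148 to 227 with vehicle and 131 to 210 at 200 mg/kg, and 0 of its 6 tested genes passed the test, with 1 (CSF1R) at an unadjusted p under 0.05. The part of these markers in the members' values was not tested.

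The lower doses gave no member past the threshold at 24 h either. At 100 mg/kg 0 of 42 changed (1.12% of all genes) and at 30 mg/kg 0 of 42 (0.0384%), with 0 members at an unadjusted p under 0.05 at both, beside 14.1% and 10.0% of all genes. The median log2 fold changes were -0.02 and -0.09, with 19 and 13 members above 0 (54.6% and 53.4% of all genes). ISG15 measured 397, 461, 461 and 543 FPKM at 30 mg/kg and 439, 462, 490.0 and 864 at 100 mg/kg. A single 100 mg/kg tumor lay apart from the rest. STAT2 measured 40.7, 42.4, 43.3 and 49.0 at 30 mg/kg and 35.9, 37.0, 43.3 and 44.3 at 100 mg/kg, within or near the vehicle range. B2M measured 401, 421, 486 and 509 at 30 mg/kg and 467, 473, 512 and 589 at 100 mg/kg.

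In 2 members the tumors at 30 mg/kg and 24 h did not overlap the vehicle tumors, IFIT5 and IFI35, beside 6.73% of all genes. They are named after their values were seen. IFIT5 measured 9.72, 10.3, 10.4 and 10.7 FPKM, under the lowest vehicle value (log2 fold change -0.20, SE 0.15, adjusted p = 0.670). IFI35, a partner of NMI, measured 38.1, 38.8, 38.9 and 50.3 with vehicle and 32.9, 34.3, 34.4 and 36.7 at 30 mg/kg (log2 fold change -0.25, SE 0.17, adjusted p = 0.654). Against the untreated tumors these differences were 0.02 and 0.0013. No member was without overlap at 100 mg/kg (7.16% of all genes) or 200 mg/kg (7.45%). With the 3 shallow libraries included, 16 of the 42 members passed the test at 30 mg/kg, 15 of them lower, beside 22.7% of all genes. With 30 mg/kg replicate 1 as the only shallow library included, 24 passed, beside 39.1% of all genes, and with the other 2 included, 0 passed, beside 0.00767%. In replicate 1, the library with 702 detected genes, 40 of the 43 members were at 0, and no member passed in any of the other 17 comparisons with all 94 libraries.

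**Figure D2:**
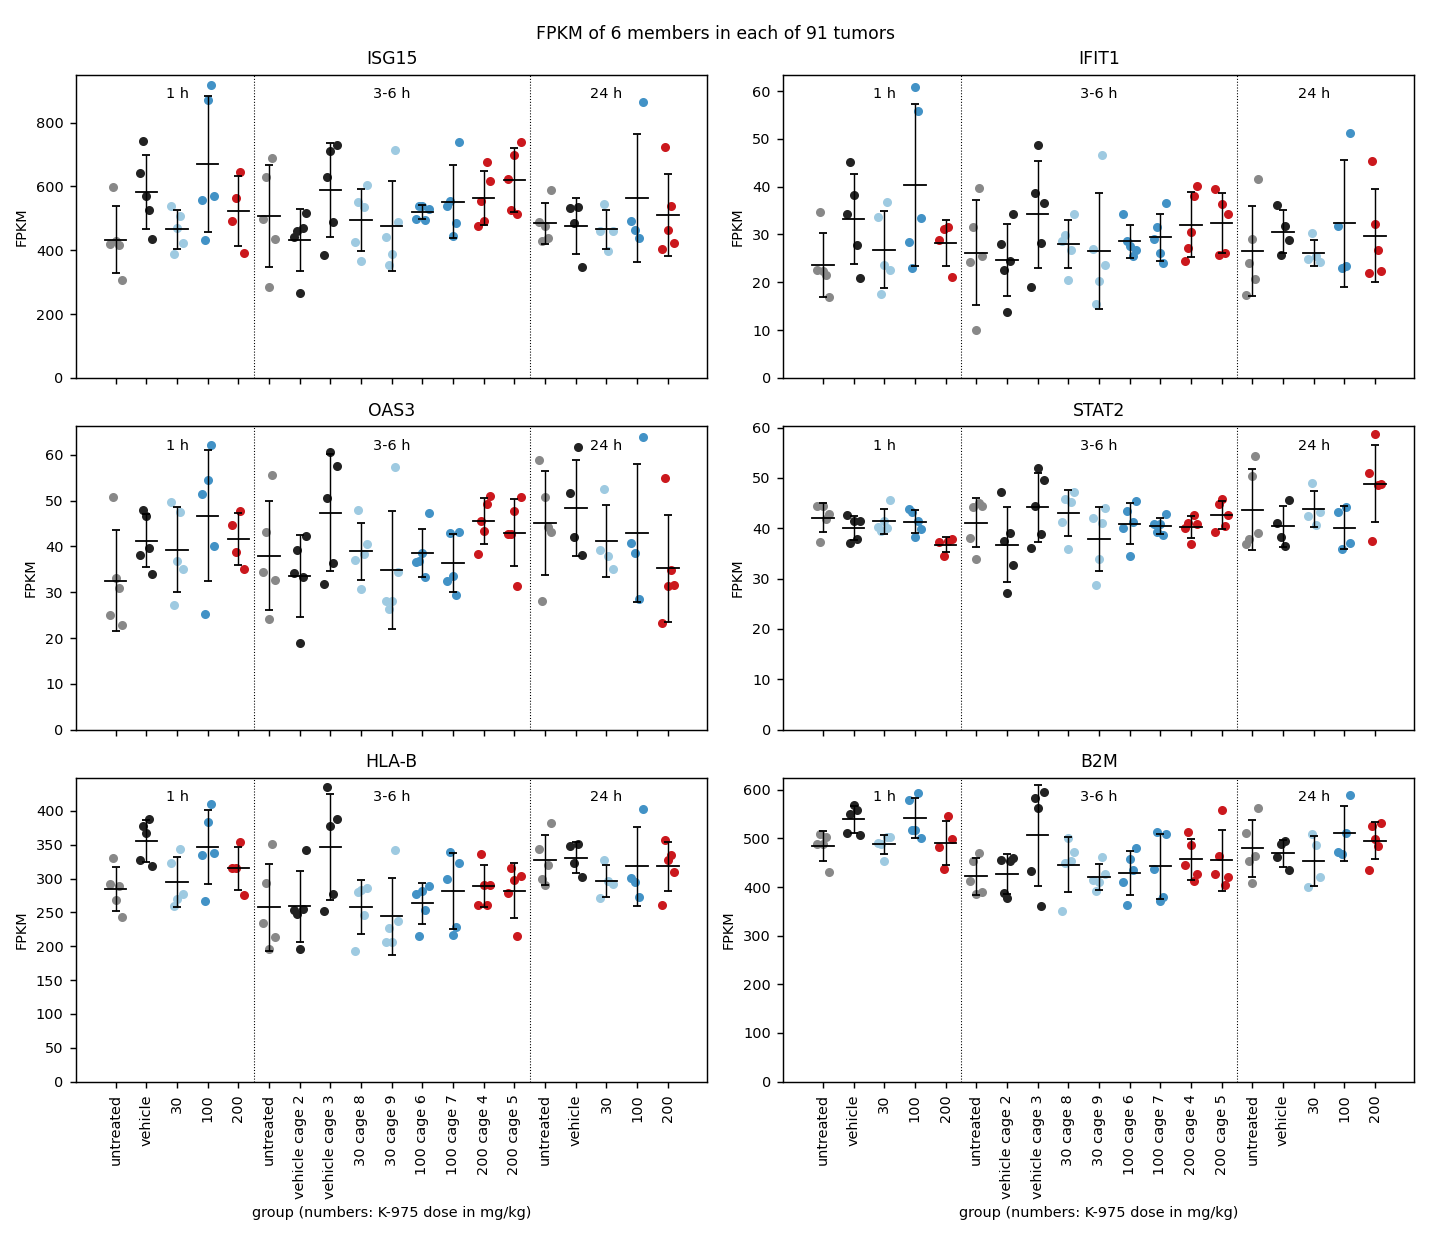
FPKM of ISG15, IFIT1, OAS3, STAT2, HLA-B and B2M in each group, with 1 point per tumor (91 tumors), a bar at the group mean and an error line of 1 SD. The treated groups overlap the vehicle group of their study, except for B2M at 30 mg/kg and 1 h, where the treated tumors lie lower.

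At 3-6 h, 35 of the 42 members had a value above 0 at 200 mg/kg against vehicle, beside 52.4% of all genes, and a median log2 fold change of 0.16 beside 0.01. None passed the test (0 of 42, against 0.069% of all genes), and 4 members were at an unadjusted p under 0.05, beside 7.23% of all genes. All 16 antiviral effectors were above 0 (median 0.24), as were the 4 transcription factors (0.11), while antigen presentation lay at -0.02 with 5 of 7 below 0. Members varied together between tumors of a group (median Pearson r of 0.48 over pairs), so these counts are not of independent genes. The log2 fold changes of the members ran from -0.06 to 0.60. The vehicle value is the mean of 2 cage groups that differed, as given below. Against the 5 untreated tumors of the study the median was 0.30, and against vehicle it was 0.08 without replicate 3 of cage group 2 and 0.09 without replicate 1 of cage group 3, both vehicle tumors. OASL, IFIT2, NLRC5 and DDX58, described next, were named after their values were seen.

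OASL, a relative of the oligoadenylate synthetases without their enzyme activity, had the largest difference. Its lowest, median and highest values were 3.48, 5.56 and 10.0 FPKM in the vehicle tumors (n = 10) and 6.52, 8.93 and 12.1 at 200 mg/kg (n = 10). The groups overlapped over much of their range, and the log2 fold change was 0.60 (SE 0.18, adjusted p = 0.173). Separately, cage groups 4 and 5 of the 200 mg/kg arm gave 0.54 and 0.65, each against the same mean of both vehicle cage groups. NLRC5 measured 13.0, 16.5 and 20.4 with vehicle and 13.8, 19.6 and 26.5 at 200 mg/kg (log2 fold change 0.30, SE 0.11, adjusted p = 0.439), 0.34 and 0.25 by cage group. IFIT2 and DDX58 differed by 0.38 and 0.27 (adjusted p = 0.513 and 0.679).

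ISG15 had a lowest, median and highest value of 265, 478 and 728 FPKM with vehicle and 477, 585 and 738 at 200 mg/kg. The upper ends of the groups were alike and the lower end was higher in the treated tumors (log2 fold change 0.25, SE 0.14, adjusted p = 0.730, interval -0.03 to 0.53). IFIT1 lay within the vehicle range in the treated tumors, at 13.7, 28.0 and 48.7 with vehicle and 24.4, 32.4 and 40.1 at 200 mg/kg (log2 fold change 0.18, SE 0.18, adjusted p = 0.904). B2M measured 361, 455 and 595 with vehicle and 405, 436 and 559 at 200 mg/kg (log2 fold change -0.02, SE 0.07, adjusted p = 0.982). The vehicle tumors were the more spread ones. A score that averages the members' standardised log2 levels in a tumor had an SD of 1.08 in the 10 vehicle tumors. In the 10 tumors at 200 mg/kg the SD of this score was 0.34. Its means were -0.56 and 0.38 in vehicle cage groups 2 and 3. In the 200 mg/kg cage groups 4 and 5 the means were 0.33 and 0.36. The treated cage groups thus lay above vehicle cage group 2 and close to vehicle cage group 3.

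At 100 mg/kg and 3-6 h 0 of 42 members passed (0.43% of all genes), with 1 at an unadjusted p under 0.05 (10.3% of all genes), a median of 0.04 and 25 above 0 (53.0%). At 30 mg/kg 0 of 42 passed (0.0153%), with 2 at an unadjusted p under 0.05 (7.03%), a median of -0.07 and 12 above 0 (53.6%). HLA-B at 30 mg/kg had a lowest, median and highest value of 194, 242 and 343 FPKM, beside 196, 266 and 436 with vehicle (log2 fold change -0.25, SE 0.10, adjusted p = 0.536). No member was without overlap in this study (0% of all genes at each dose).

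At 1 h the doses pointed in different directions. The median log2 fold change of the members was -0.26 at 30 mg/kg (5 of 42 above 0), 0.09 at 100 mg/kg (31 above 0) and -0.16 at 200 mg/kg (6 above 0), while 51.7%, 53.2% and 49.3% of all genes were above 0. No member passed the limma test at 30 mg/kg (0% of all genes), 100 mg/kg (0.00767%) or 200 mg/kg (0%), with 8, 1 and 1 members at an unadjusted p under 0.05, beside 4.38%, 4.97% and 3.34% of all genes. The 8 at 30 mg/kg, all on the lower side, were (named after their values were seen) DDX58, IRF1, IRF7, MX2, OAS1, SAMD9, PARP14 and NLRC5, with an adjusted p of 1 each. Against the untreated tumors of the same study the medians became 0.01, 0.28 and 0.11. The median at 100 mg/kg was 0.01 without its replicate 4, and that at 200 mg/kg -0.05 without its replicate 5.

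ISG15 measured 307, 416, 419.8, 427 and 597 FPKM in untreated tumors and 436, 526, 568, 643 and 741 with vehicle. At 30 mg/kg it was 387, 422, 471, 506 and 538, at 100 mg/kg 431, 558, 571, 870.2 and 918 and at 200 mg/kg 390.1, 491, 565 and 645. The 2 highest of the 91 tumors were in the 100 mg/kg group, whose other 3 tumors lay at 431 to 571 FPKM. The log2 fold changes against vehicle were -0.31, 0.16 and -0.16 (adjusted p = 1, 0.970 and 1). IRF1 and B2M were the members whose tumors at 30 mg/kg did not overlap vehicle, beside 0.69% of all genes. IRF1, a factor that type II interferon induces early, is named after its values were seen. It measured 15.6, 16.5, 18.1, 22.0 and 24.7 FPKM with vehicle and 11.4, 11.4, 12.1, 13.4 and 15.0 at 30 mg/kg (log2 fold change -0.56, SE 0.24, adjusted p = 1), and 10.2, 12.7, 14.0, 16.9 and 21.9 in untreated tumors. At 200 mg/kg it measured 16.2, 18.0, 19.3 and 20.7, within the vehicle range. B2M measured 508, 512, 549.9, 557 and 568 with vehicle, 453, 488, 491, 503 and 503 at 30 mg/kg (log2 fold change -0.14, SE 0.10, adjusted p = 1) and 431, 489, 489, 502 and 508 in untreated tumors. Against untreated tumors its difference at 30 mg/kg was 0.01. No member was without overlap at 100 mg/kg (0.828% of all genes) or 200 mg/kg (1.37%).

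**Figure D3:**
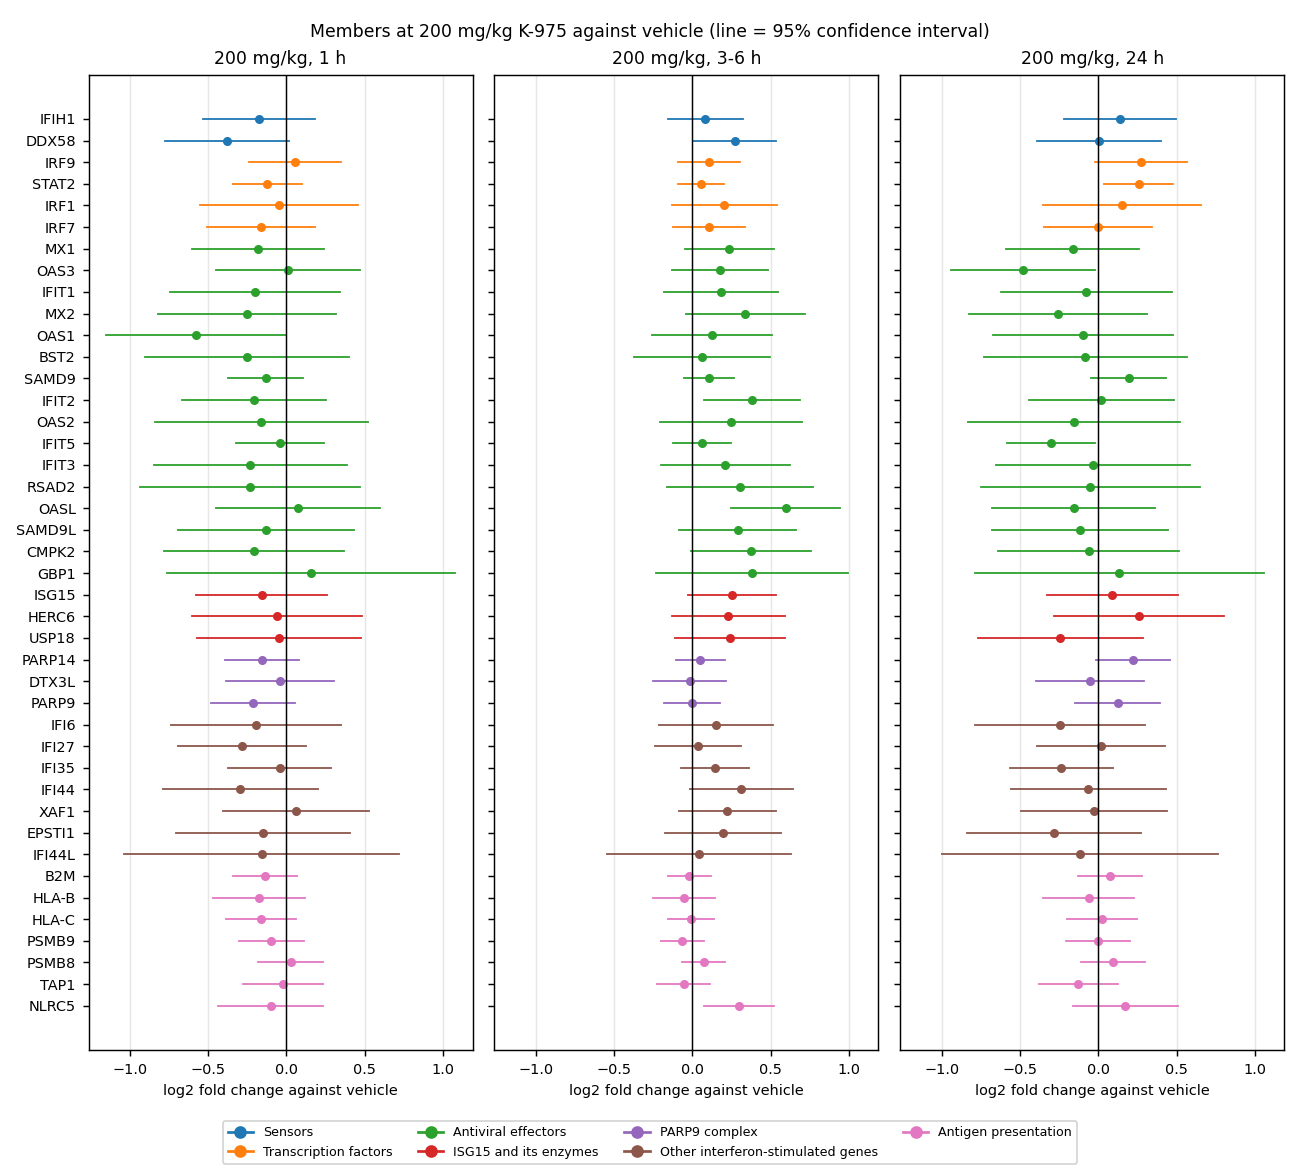
Log2 fold change of the 42 tested members at 200 mg/kg against vehicle at 1 h, 3-6 h and 24 h, where points are estimates on the log2(FPKM + 1) scale, lines are 95% confidence intervals and colours give the role. Most points lie left of 0 at 1 h and right of 0 at 3-6 h, and at 24 h they lie on both sides; no adjusted p was under 0.05.

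Vehicle and untreated tumors show the background of these differences. At 1 h 37 of 42 members were higher with vehicle, beside 49.6% of all genes, with a median log2 fold change of 0.24, beside -0.26, 0.09 and -0.16 for 30, 100 and 200 mg/kg against vehicle. At an unadjusted p under 0.05 there were 7 members (4.73% of all genes). ISG15 differed by 0.44 (SE 0.20, adjusted p = 1) and HLA-B by 0.32 (SE 0.14, adjusted p = 1). HLA-B measured 243, 269, 289, 292 and 331 FPKM in untreated and 319, 328, 367, 377 and 387 in vehicle tumors. At 3-6 h the median was 0.11 (35 higher, 45.3% of all genes) and at 24 h 0.02 (22 higher, 49.5%), with 0 members at an unadjusted p under 0.05 (4.83% and 4.20% of all genes). No member passed the limma test in any of the 3 studies (0% of all genes in each).

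The tests of the difference between the studies' effects at 200 mg/kg passed no member. Between 24 h and 1 h 0 of 42 passed (0.583% of all genes), between 24 h and 3-6 h 0 of 42 (1.72%) and between 3-6 h and 1 h 0 of 42 (0% of all genes). At an unadjusted p under 0.05 there were 2, 3 and 4 members, beside 13.2%, 16.3% and 4.63% of all genes. The last of these had 41 of 42 members above 0 (52.2% of all genes), with a median of 0.28, and the others had 30 (55.2%) and 11 (53.6%). Members varied together between tumors, so these are not counts of independent genes. STAT2 differed by 0.38 (SE 0.16, adjusted p = 0.261) between 24 h and 1 h. The 3 tests share tumors with each other, and study, cage and time coincide in them.

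Untreated tumors of different studies were compared in the same way. From 1 h to 24 h the median difference was 0.09, from 1 h to 3-6 h -0.05 and from 3-6 h to 24 h 0.17, with 29, 14 and 33 members above 0 (49.8%, 57.8% and 42.1% of all genes). No member passed in them (0.00767%, 0.0997% and 4.36% of all genes), and 1, 2 and 3 members were at an unadjusted p under 0.05 (10.0%, 9.25% and 17.9%). HLA-B was 196, 214, 234, 294 and 352 FPKM at 3-6 h and 291, 300.1, 320.2, 344 and 383 at 24 h (log2 fold change 0.37, SE 0.14, adjusted p = 0.115), and passed only without the 3-6 h untreated replicate 4 (0.49, adjusted p = 0.0267). CD68 rose in the same comparison (log2 fold change 1.07, limma adjusted p = 0.00344), beside 2.22% of all genes. With all 94 libraries 0.00767% of all genes passed in it. The part of CD68 in the HLA-B value was not tested.

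Beyond the members, 94 further genes of the pathway were followed, of which 69 were tested. At 200 mg/kg and 24 h 4 of 69 passed, 2 higher (3.80% of all genes) and 2 lower (3.61%). These 4 genes are named because they passed. SOCS1, a feedback inhibitor of JAK-STAT signaling, was tested and did not pass. SOCS3, another such inhibitor, fell. It measured 26.3, 28.6, 28.7 and 29.0 FPKM with vehicle and 11.7, 14.6, 16.9, 19.6 and 21.4 at 200 mg/kg, with no overlap (log2 fold change -0.73, SE 0.19, adjusted p = 0.00852). It kept its call in 8 of 9 fits that left out a tumor (adjusted p = 0.0591 without 200 mg/kg replicate 1) and lost it with untreated tumors as the control (-0.50, adjusted p = 0.0635) and with all 94 libraries (adjusted p = 1). In the fit of 94 libraries 0% of all genes passed in this comparison, and 4.54% were at an unadjusted p under 0.05.

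IFNGR1, the ligand-binding chain of the type II interferon receptor, rose. It measured 174, 177, 179 and 242 FPKM with vehicle and 155, 297, 302, 324 and 347 at 200 mg/kg, so that 1 treated tumor lay under all vehicle tumors and 4 above them (log2 fold change 0.52, SE 0.15, adjusted p = 0.0247). IKBKE, a kinase of the cytosolic RNA response, rose from 7.79, 8.90, 9.80 and 10.1 with vehicle to 11.6, 13.0, 15.9, 16.2 and 18.6 (log2 fold change 0.65, SE 0.19, adjusted p = 0.0221). CALR, a chaperone of class I assembly, fell from 496, 529, 543 and 574 to 429.9, 456, 467, 479 and 488 (log2 fold change -0.21, SE 0.07, adjusted p = 0.0415). In a fit of only the compared groups these 3 calls were lost (adjusted p = 0.186, 0.0562 and 0.105), and they held in 2, 4 and 2 of 9 fits that left out a tumor. They were also lost with all 94 libraries (adjusted p = 1 for each), IKBKE was lost against untreated tumors (0.35, adjusted p = 0.228), and CALR was lost after quantile normalization (adjusted p = 0.135).

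At 100 mg/kg and 24 h 1 of 69 passed, higher (0.583% of all genes). IFNAR1, a chain of the type I interferon receptor, rose from 13.7, 21.9, 23.5 and 33.1 with vehicle to 39.8, 41.4, 44.0 and 44.4 (log2 fold change 0.91, SE 0.24, adjusted p = 0.0368). The call held in 2 of 8 fits that left out a tumor, was lost with only the compared groups (adjusted p = 0.145) and was lost against untreated tumors (0.49, adjusted p = 0.284). With all 94 libraries the value was -0.18. At 100 mg/kg and 3-6 h IFNLR1, of the type III receptor, passed lower (log2 fold change -0.56, SE 0.14, adjusted p = 0.0368) beside 0.299% of all genes, at a median of 0.13 FPKM, near the floor of the table. It passed in 4 of 17 fits that left out a tumor and in 4 of 9 other alternatives. With a pseudocount of 0.1 it was -2.01 (adjusted p = 0.0545), and against untreated tumors -0.10 (adjusted p = 0.914). IFNAR2, the other chain of the type I receptor, had a median of 21.8 FPKM and a difference of -0.22 at 200 mg/kg and 24 h (adjusted p = 0.328). The 21 interferon ligands were not tested because none passed the filter. Their highest value in any of the 91 tumors was 1.20 FPKM, 15 of them were at 0 in every tumor, and IFNB1 was at 0 in 83. Between untreated tumors of 24 h and 3-6 h HLA-E and TAPBP passed higher (0.44 and 0.25, adjusted p = 0.0387 and 0.0421, beside 2.22% of all genes), and neither passed with only the compared groups (adjusted p = 0.114 and 0.137) or with all 94 libraries (adjusted p = 1 for both). They passed in 3 and 2 of 10 fits that left out a tumor.

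The members varied together between tumors of the same group. With group means subtracted, the 861 pairs of tested members had a median Pearson r of 0.48 over 91 tumors, 839 pairs were above 0, and all pairs of tested genes had a median of 0.004. The tumors share cell line, library method and the scaling of FPKM, so this is a description. Because members varied together, counts of members above 0 in the comparisons were not counts of independent genes. Pairs outside antigen presentation had a median of 0.54 (595 pairs), pairs within it 0.42 (21 pairs) and pairs between these kinds 0.39 (245 pairs). Within a single study the median was 0.53 at 1 h, 0.54 at 3-6 h and 0.40 at 24 h, and it was 0.44 without the 2 tumors that were lowest for most members.

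**Figure D4:**
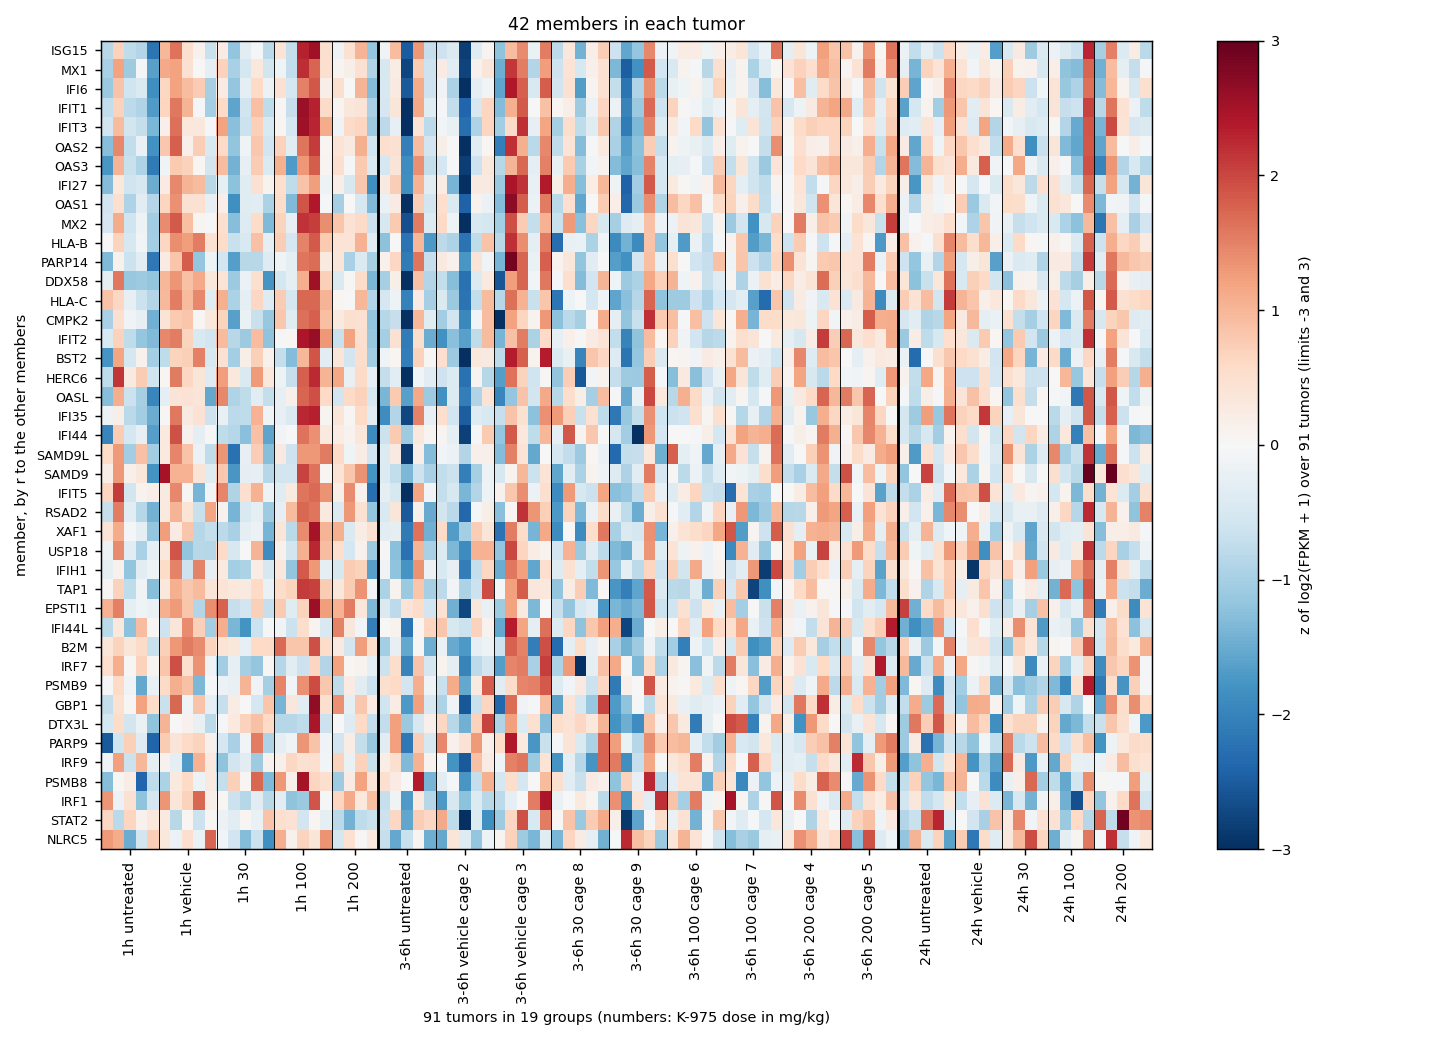
Levels of the 42 tested members (rows) in 91 tumors (columns, by group), as log2(FPKM + 1) in SD units from the mean of each row, with rows ordered by their r to the other members. Single columns are red or blue over most rows in control and in treated groups, and the lowest rows, down to NLRC5, follow this pattern least.

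Each member was set against the mean of the others. ISG15 and MX1 followed it most closely (r = 0.94 and 0.94), then IFI6 (0.93), IFIT1 (0.91), IFIT3 (0.90) and OAS2 (0.90). In all 14 members reached 0.8, HLA-B (0.83) and HLA-C (0.81) among them, and the median was 0.72. B2M stood at 0.56. There were 8 members under 0.5, of which IRF9 stood at 0.40, PSMB8 at 0.39, IRF1 at 0.31, STAT2 at 0.24 and NLRC5 at 0.06. All 4 transcription factors lay under the median, with IRF7 at 0.55. Promoters with and without the ISRE core had similar medians, 0.72 over 17 members and 0.70 over 18.

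Among pairs, ISG15 and MX1 gave r = 0.86 (Spearman rho 0.84), and 0.85 without the 2 tumors farthest from the median of ISG15. At 24 h alone (22 tumors) this pair gave 0.70, and 0.46 without 2 such tumors. Over all tumors HLA-B and HLA-C gave 0.87, and HLA-B and B2M 0.76. IRF9 and STAT2, subunits of 1 complex, gave 0.35. ISG15 and STAT2 gave 0.20 over all tumors, a value that hides opposite signs, with -0.49 at 1 h (24 tumors), 0.68 at 3-6 h (45) and -0.45 at 24 h (22). Without the 2 tumors of each study farthest from the median of ISG15 these were -0.50, 0.60 and -0.26. NLRC5 had a median r of 0.18 to the other 6 antigen presentation members, the class I genes it is known to activate included. Of all other tested genes, those most like the mean of the members were HELZ2 (0.86), IFITM1 (0.86), PML (0.83), CCL5 (0.82) and TYMP (0.82).

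Sums of marker lists varied with the members, each through some of its genes. Within groups the members' score had r = 0.62 with the summed leukocyte markers, whose sum ran from 45.8 to 269 FPKM and rested on CD68, and -0.63 with the summed mesothelioma markers, which ran from 2432 to 3975 FPKM. Of the leukocyte markers CD68 had r = 0.63 and ITGAM 0.39, while CD14 (0.08), CD79A (0.06), PTPRC (-0.19) and CSF1R (-0.26) did not follow the members. Of the mesothelioma markers CALB2 (-0.70), MSLN (-0.63), KRT19 (-0.59) and KRT7 (-0.56) ran against the members and WT1 (0.30) with them. UPK1B (-0.22), KRT18 (-0.14) and KRT8 (-0.07) followed the members little. With the summed fibroblast and pericyte markers r was -0.49. That sum rested on COL1A1 (-0.47), while RGS5 stood at -0.28, DCN at -0.18, PDGFRB at -0.09, ACTA2 at -0.01 and LUM at 0.005. With the summed endothelial markers r was -0.31. That sum rested on KDR (median 63.9 FPKM, r = -0.32), while VWF stood at -0.22 and CDH5 at 0.24. With the summed FPKM of the library r was 0.59. In the tumors with the lowest scores, 3-6 h vehicle cage group 2 replicate 3 and 3-6 h untreated replicate 3, the leukocyte sums were 47.7 and 57.2 FPKM. The part of these markers in the shared variation was not tested. After scaling by median-ratio size factors the median r over pairs was 0.47, and after quantile normalization 0.46. Of the members, 14 have loci that overlap another entry of the table. IFIT1, IFIT2 and IFIT3 lie within the span of LIPA, HLA-B and HLA-C overlap, and so do TAP1, PSMB8 and PSMB9, PARP9 and DTX3L, and RSAD2 and CMPK2. Whether counting used the strand is not given in the sources used here, so reads of such neighbours may have been split between them.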

How the data were processed

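Tumors were preserved in RNAlater, and total RNA was extracted with miRNeasy and made into libraries with KAPA RNA HyperPrep and KAPA HyperCap target enrichment. STAR and GRCh38 are named in the submitters' processing notes. The quantifier, the annotation release and the handling of mouse reads are not given in the sources used here. The authors deposited FPKM values per gene, and no counts, so the depth per library is unknown and no count test was run.

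Of 20555 entries, 20239 were kept, after 316 repeats of a gene identifier were left out, and 32 blank cells were read as 0. Genes that reached an FPKM of 1 in 4 or more of the 91 libraries were tested with limma 3.58.1 (R 4.3.3, trend and robust) on log2(FPKM + 1), with 19 groups in 1 fit, two-sided, and Benjamini-Hochberg adjustment over 13036 genes. Fold changes are on this scale, which understates those of low genes. Libraries with under 10000 genes at that level were left out. The fit was tested on simulated data. The p-values measure the spread between tumors, 1 per mouse.

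The members and lists were chosen with earlier results of these data known. Some genes of the pathway list are not reported here. Named members were the 6 with the largest log2 fold change at 200 mg/kg and 24 h, because none passed the threshold, and B2M, HLA-B, ISG15, IFI27, IFIT1, STAT2 and IRF9. Alternatives were a pseudocount of 0.1, no filter, size factors, quantile normalization, all 94 libraries, only the groups compared, untreated controls, single cage groups and leaving out each tumor. Python 3.11.15, pandas 2.3.3 and SciPy 1.17.1 were used for descriptions.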

Additional observations from a re-analysis of the deposited data

Results flagged for a closer look

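In 10 of 209 groups of 4 or 5 tumors examined over the named members, 1 tumor lay farther from its neighbours than Dixon's 95% limit. Chance flags about 1 in 20 groups. Of these, 4 came from 1 tumor, the 3-6 h 30 mg/kg replicate 4 of cage group 9, which was high for OAS3 at 57.3 FPKM, beside 26.3 to 34.4 in the others. In this tumor EPSTI1 was 7.00 (1.91 to 2.78), HERC6 24.8 (9.95 to 14.0) and HLA-B 343 (207 to 237) FPKM, with the range of the other tumors of the cage in parentheses. HERC6 stood apart in 3 more tumors. It was high in 24 h vehicle replicate 3 at 16.4 (11.5 to 12.03) and in 3-6 h 200 mg/kg replicate 5 of cage group 5 at 21.2 (12.5 to 14.5), and low in 3-6 h untreated replicate 3 at 3.87 (11.2 to 13.7). B2M was low in 1 h untreated replicate 5 at 431 (489 to 508), and IFI27 in 24 h untreated replicate 2 at 211 (303 to 337). ISG15 was high in 24 h 100 mg/kg replicate 4 at 864 (439 to 490.0).

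The 3 libraries left out of the tests held members above every one of the 91 libraries tested. There were 8 such members in 1 h 200 mg/kg replicate 1 and 14 in 24 h 100 mg/kg replicate 5. In 24 h 30 mg/kg replicate 1 there were 3, IFIH1, IFIT3 and MX1, while 40 members were at 0.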

How the results depend on the processing

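In every comparison 0 members passed, except under 4 alternatives. With all 94 libraries 16 members passed for 30 mg/kg at 24 h, beside 22.7% of all genes, and 24 with 30 mg/kg replicate 1 as the only shallow library added, beside 39.1%. Leaving out 1 tumor gave 0 to 1 members for 200 mg/kg at 24 h (1 without 200 mg/kg replicate 2, STAT2) and 0 to 1 for untreated tumors of 24 h against 3-6 h (1 without 3-6 h untreated replicate 4, HLA-B). The count was 0 in the other 252 of 254 fits without a tumor and in 123 of 125 others. Of the named values 9 of 219 turned sign under other alternatives. With untreated tumors as control these were IFIT1 (0.17), HERC6 (-0.011) and IFI27 (-0.0029) for 200 mg/kg at 24 h, B2M for 200 mg/kg at 3-6 h (0.11) and for 30 mg/kg at 1 h (0.013), and IFIT5 (0.017) and IFI35 (0.0013) for 30 mg/kg at 24 h. IFI27 was also -0.014 with size factors and IFNAR1 -0.18 with all 94 libraries, and the cause was not tested. The count of further pathway genes moved by over 1.5 times in 45 of 254 fits without a tumor and in 13 of 125 others. Without 1 tumor, 14 of 336 values turned sign. At 200 mg/kg and 24 h ISG15 ran from -0.055 to 0.16, IFI27 from -0.10 to 0.11, IFIT1 from -0.24 to 0.015 and HLA-B from -0.11 to 0.0066, and at 3-6 h B2M from -0.077 to 0.013. The alternatives for the median r over pairs, and the addition of single shallow libraries, were chosen after the data were seen. No paired analysis was possible because the labels give no replicate numbers that tie tumors of different groups. For 200 mg/kg at 24 h the 95% interval reached a median of 0.44 on either side of a member's log2 fold change. The reach was 0.20 in B2M and 0.92 in GBP1. These intervals are not adjusted, and their width uses the spread in all 19 groups. A call needed an adjusted p under 0.05 over 13036 genes, so a difference as large as this reach need not have passed.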
